A study of Homo sapiens with 7 samples.

Results

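The genes described here encode 39 plasma proteins that liver cells secrete: carrier proteins, acute phase proteins, protease inhibitors, fibrinogen chains, coagulation proteins and complement proteins. They were found by gene symbol in the platform's probe table, and the probe with the highest mean intensity stood for each gene. Of the 39 genes, 37 had a probe of their own among 18336 genes with one. Haptoglobin (HP) and orosomucoid 1 (ORM1), both acute phase proteins, had only probes shared with HPR and ORM2, so no value is given for them. A mean level above the 30th percentile of all genes, a normalized log2 intensity of 8.05, was reached by 33 of the 37, and by 12835 genes in all. The 4 below it were F9, PLG, C9 and MASP2.

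Hepatocytes make most proteins of blood plasma. Coagulation factors are proteases and cofactors that act in sequence until thrombin cuts fibrinogen into fibrin, while protein C, protein S and the serpins hold that sequence back. Complement is a second cascade. In it C1R, C1S and C2 of the classical route, or factor B of the alternative route, lead to cleavage of C3. The terminal proteins C5 to C9 then form a pore. During inflammation the acute phase response, driven largely by interleukin 6 through STAT3, shifts what the liver secretes: C-reactive protein and fibrinogen go up, albumin and transferrin go down. IFN-α belongs to the type I interferons and IFN-λ4 and IFN-λ1 to the type III interferons. The types bind different receptors.

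The cells were Huh7, an established human hepatoma line that keeps many hepatocyte functions and grows in culture without other liver cells. They received IFN-α at 10 IU/ml, IFN-λ4 at 20 ng/ml or IFN-λ1 at 20 ng/ml, each for 16 h or 6 h, or nothing. Total RNA was hybridized to 1-colour Cy5 arrays, 1 array for each of the 6 treatments and 1 for untreated cells, whose time in culture is not given in the sources used here. The doses of IFN-α and IFN-λ are in different units, so the strength of the doses cannot be told apart from the kind of interferon.

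Median intensity lay between 494 and 633 on the treated arrays and was 609 on the untreated array. The IFN-α 16 h array stood apart most: 9.25% of the 12835 genes differed from untreated by at least 2-fold on it, against 1.18% to 6.77% on the other treated arrays. Treatment was visible in the interferon-stimulated genes IFI6, ISG15, OAS1, MX1 and IFIT1, which all rose in limma's comparison of treated with untreated arrays (adjusted p 0.00112 to 0.0425). Of 8 hepatocyte markers 5 had a probe of their own, and all 5 (APOA1, APOB, APOH, FOXA2, KRT8) were above the dim level, with a summed intensity of 425950.5 to 477188 on treated arrays and 457169.8 in untreated cells. PTPRC, the pan-leukocyte marker, had intensities of 34.9 to 50.8 on treated arrays and 48.9 in untreated cells, and the T-cell marker CD3E 41.1 to 92.0 and 60.8, both far under the dim level. The other 6 of the 8 leukocyte markers with a probe of their own were above the dim level. Of these, 3 (MS4A1, CD14 and NKG7) were at least 2-fold higher on some array, as 8.34% of all genes were. The summed intensity of the 8 leukocyte markers was 6624 to 11798 on treated arrays against 5833 in untreated cells, led by CD14. Its part in the differences below was not tested.

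Most of the plasma protein genes stayed within 2-fold of untreated cells on each treated array. C1R, a protease of the first complement component, was at least 2-fold higher with IFN-α at both times, and C8A, a chain of the complement pore, was at least 2-fold higher with both IFN-λ at 16 h. F10, coagulation factor X, was more than 2-fold lower after 6 h of IFN-α. Among the plasma protein genes, those of complement lay mostly above untreated cells and those of coagulation mostly below them with IFN-α at 6 h. With 1 array per condition these differences have no replicate check and no p-value, and RNA was pooled over all cells of a culture, so fewer cells with a transcript and less of it per cell cannot be told apart.

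Counted by array, 1 of 33 genes was at least 2-fold from untreated with IFN-α at 16 h, where 9.25% of all genes were, and 2 of 33 at 6 h, where 6.77% were. With IFN-λ4 the count was 1 at 16 h (1.18% of all genes) and 0 at 6 h (3.29%). With IFN-λ1 it was 1 at 16 h (1.19%) and 0 at 6 h (1.73%). On the IFN-α arrays the share of the plasma protein genes past 2-fold was therefore below or near that of all genes. The median absolute log2 difference was 0.39 for the 33 genes and 0.34 for all genes with IFN-α at 16 h, and 0.36 against 0.29 at 6 h.

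**Figure D1:**
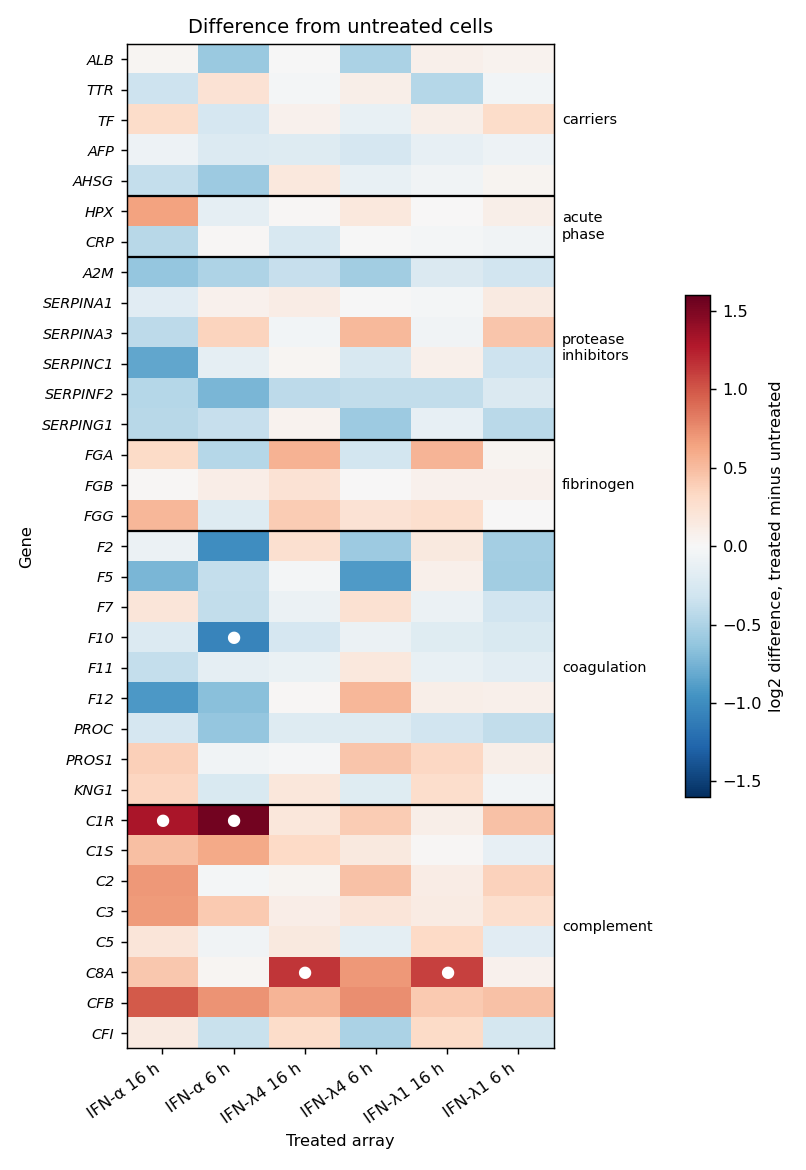
Log2 difference from untreated of the 33 plasma protein genes above the dim level (down the page, grouped by role) on the 6 treated arrays (across), quantile-normalized. Red is higher and blue lower than untreated, and white dots mark differences of at least 2-fold: C1R on both IFN-α arrays, C8A on both 16 h IFN-λ arrays and F10 on the IFN-α 6 h array.

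The median log2 difference of the 33 genes was 0.02 after 16 h of IFN-α and -0.21 after 6 h, 0.04 and -0.01 with IFN-λ4, and 0.08 and -0.05 with IFN-λ1. The medians over all genes lay between -0.08 and 0.03. With IFN-α at 6 h, 10 genes were above and 23 below untreated. That split depended on the scaling: with each array centred on its median, 20 were above and 13 below. The median over all genes was then 0.22 on that array, -0.17 with IFN-α at 16 h and 0.05 to 0.22 on the IFN-λ arrays. Centring also gave 25 above and 8 below with IFN-λ4 at 16 h and 24 and 9 at 6 h, in place of 20 and 13 and of 15 and 18. For IFN-α at 16 h it gave 14 and 19 in place of 17 and 16, for IFN-λ1 at 16 h 23 and 10 in place of 20 and 13, and for IFN-λ1 at 6 h 18 and 15 in place of 16 and 17. A small common shift cannot be told apart from the scaling, and the differences that follow are relative to the quantile-normalized array.

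**Figure D2:**
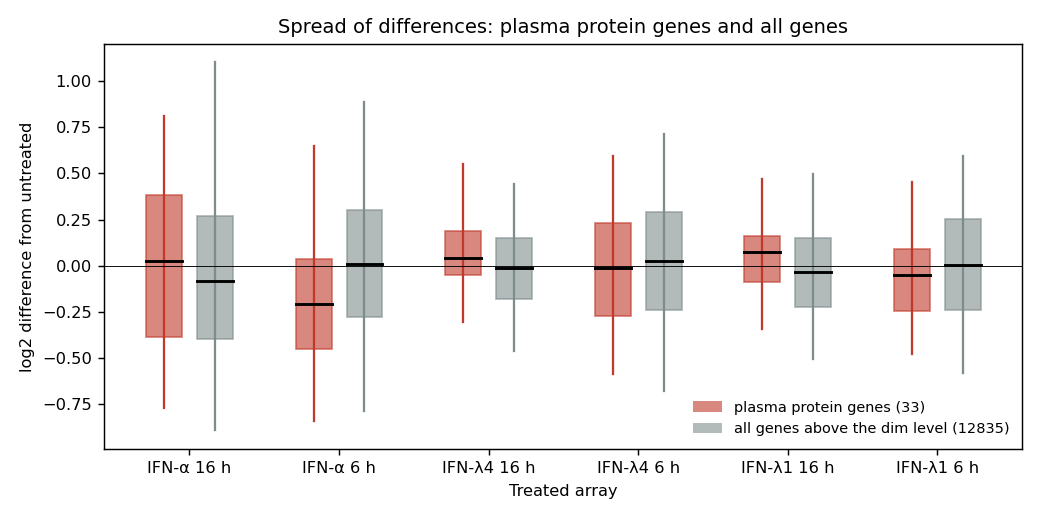
Log2 difference from untreated (vertical axis) on each treated array for the 33 plasma protein genes (red) and all 12835 genes above the dim level (grey). Boxes span the 25th to 75th percentile, bars mark the median and lines run from the 5th to the 95th percentile; the medians of the plasma protein genes run from -0.21 (IFN-α 6 h) to 0.08 (IFN-λ1 16 h).

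Both genes that were at least 2-fold higher on an array belonged to complement. All 8 complement genes of the 39 that were above the dim level were higher than untreated on each 16 h array. Of all genes, 43.3% (IFN-α), 47.8% (IFN-λ4) and 44.6% (IFN-λ1) were higher there. At 6 h, 5, 6 and 5 of the 8 were higher with IFN-α, IFN-λ4 and IFN-λ1, against 50.7%, 53.0% and 50.4% of all genes. With median centring, 6 of the 8 were higher with IFN-α at 16 h and 8 with each IFN-λ, and with the scaling as deposited the 16 h counts were 8, 8 and 6. The group's median log2 difference was 0.58 after 16 h of IFN-α and 0.23 after 6 h, 0.24 and 0.30 with IFN-λ4, and 0.22 and 0.17 with IFN-λ1. The 14 further complement genes above the dim level, described later, were split more evenly at 16 h. Of these, 7 were higher with IFN-α, 6 with IFN-λ4 and 7 with IFN-λ1. Their median log2 differences were -0.04, -0.06 and 0.01.

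C1R had intensities of 1180 and 1170 with IFN-α at 16 h and 6 h, 490 and 536 with IFN-λ4, 466 and 664 with IFN-λ1, and 489 in untreated cells. Both IFN-α arrays were above all other arrays, and the IFN-λ arrays were nearer to untreated. After normalization C1R was 2.48-fold above untreated after 16 h of IFN-α and 2.91-fold after 6 h, and 1.07-fold to 1.38-fold above it on the IFN-λ arrays. A second C1R probe was below the dim level and did not show the difference, with log2 differences of -0.23 and -0.76 on the IFN-α arrays.

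C1S, the protease that C1R activates, is encoded 9.2 kb from C1R on chromosome 12 (C1S at 7060718 to 7071032 and C1R at 7080219 to 7092445, GRCh38.p14). Its intensities were 751 and 661 with IFN-α at 16 h and 6 h, 605 and 495 with IFN-λ4, 489 and 485 with IFN-λ1, and 536 in untreated cells. The IFN-α arrays were again above all others, by less: log2 differences from untreated were 0.48 and 0.60 with IFN-α and -0.13 to 0.32 with IFN-λ.

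C3, whose cleavage is the step all complement routes share, had intensities of 59697 and 58343 with IFN-α at 16 h and 6 h, 44387 and 51081 with IFN-λ4, 45078 and 51303 with IFN-λ1, and 41046 in untreated cells. All treated arrays were above untreated, and the IFN-α arrays were highest. The log2 differences were 0.68 and 0.42 with IFN-α, 0.11 and 0.20 with IFN-λ4 and 0.13 and 0.27 with IFN-λ1. A second C3 probe had the same sign on 4 of the 6 arrays; on the IFN-α arrays it gave 0.73 at 16 h and -0.18 at 6 h.

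CFB, complement factor B of the alternative route, had intensities of 4222 and 3477 with IFN-α at 16 h and 6 h, 3252 and 3614 with IFN-λ4, 2957 and 3189 with IFN-λ1, and 2282 in untreated cells. Every treated array was above untreated, also with median centring and with the scaling as deposited. The log2 differences were 0.98 and 0.71 with IFN-α, 0.55 and 0.75 with IFN-λ4 and 0.42 and 0.47 with IFN-λ1, the highest being 1.98-fold. C2, the counterpart of factor B in the classical route, ends 422 bases before the start of CFB on chromosome 6. Its log2 differences were 0.69 and -0.03 with IFN-α at 16 h and 6 h, 0.04 and 0.47 with IFN-λ4, and 0.12 and 0.37 with IFN-λ1, so that it lay clearly above untreated on some arrays and level with it on others.

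C8A was at its brightest with the IFN-λ. Its intensities were 490 and 288 with IFN-α at 16 h and 6 h, 695 and 464 with IFN-λ4, 673 and 361 with IFN-λ1, and 349 in untreated cells. The 16 h array was above the 6 h array of the same interferon in each case, and the 16 h IFN-λ arrays were above all others. C8A was 2.20-fold above untreated with IFN-λ4 and 2.14-fold with IFN-λ1 at 16 h, and 1.35-fold with IFN-α. With the scaling as deposited both IFN-λ differences were just under 2-fold. C8A had 1 probe, and its intensities in untreated cells and with IFN-α at 6 h were near the dim level of about 265.

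C5 and CFI were above untreated at 16 h and below it at 6 h, although with median centring both were level with it on the IFN-α 16 h array and C5 was above it on the IFN-α and IFN-λ4 6 h arrays. C5, the first terminal component, ranged in log2 difference from 0.16 to 0.32 at 16 h and from -0.18 to -0.05 at 6 h. CFI, complement factor I, which degrades C3b, ranged from 0.15 to 0.31 at 16 h and from -0.51 to -0.28 at 6 h. Among the dim genes, C9 had intensities of 76.9 to 118 on treated arrays and 107 in untreated cells, and MASP2, a protease of the lectin route, 101 to 166 and 193.

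**Figure D3:**
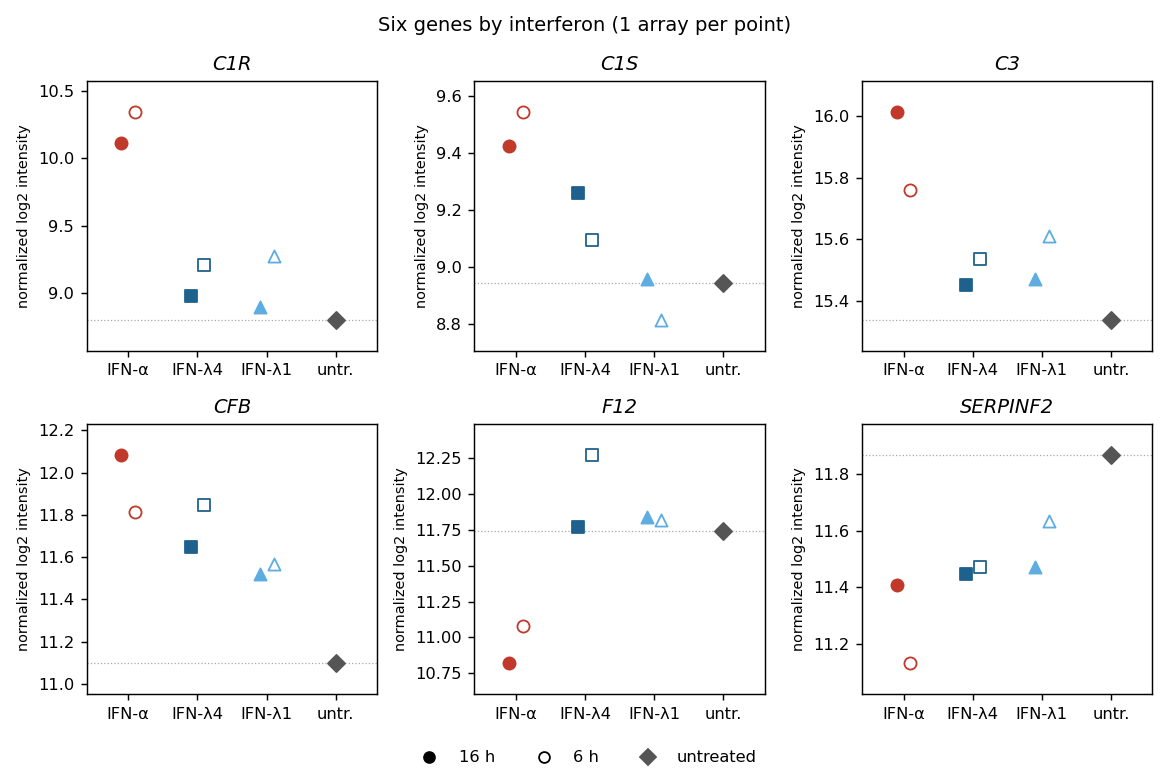
Normalized log2 intensity (vertical axes, each panel with its own range) of C1R, C1S, C3, CFB, F12 and SERPINF2 by interferon, 1 array per point, with filled symbols at 16 h and open symbols at 6 h. C1R, C1S and C3 were highest on both IFN-α arrays, F12 and SERPINF2 were lowest there, and CFB was above untreated (dotted line) on all 6 treated arrays.

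The promoters of C1R, CFB and C8A are printed because these genes had the largest mean absolute difference from untreated of those found in the table. Each is the RefSeq sequence (GRCh38.p14) from 250 bases before to 50 after the gene's start, read on the gene's strand. Capitals mark matches to GAAANNGAA, a shortened core of the interferon-stimulated response element, or to TTCNNNGAA, the gamma-activated site. C1R lies on the minus strand at chr12:7092396-7092695, CFB on the plus strand at chr6:31945845-31946144 and C8A on the plus strand at chr1:56854547-56854846.

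C1R: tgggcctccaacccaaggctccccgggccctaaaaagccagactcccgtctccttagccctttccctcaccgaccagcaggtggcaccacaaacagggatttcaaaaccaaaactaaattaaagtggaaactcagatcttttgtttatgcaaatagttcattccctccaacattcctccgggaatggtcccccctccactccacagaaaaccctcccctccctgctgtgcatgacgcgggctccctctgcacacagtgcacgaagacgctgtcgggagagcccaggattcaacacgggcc
CFB: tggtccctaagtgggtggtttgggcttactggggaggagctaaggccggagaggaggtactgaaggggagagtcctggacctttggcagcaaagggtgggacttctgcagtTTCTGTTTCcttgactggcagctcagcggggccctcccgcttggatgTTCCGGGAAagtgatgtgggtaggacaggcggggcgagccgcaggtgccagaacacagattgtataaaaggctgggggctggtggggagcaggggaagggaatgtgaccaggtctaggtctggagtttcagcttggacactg
C8A: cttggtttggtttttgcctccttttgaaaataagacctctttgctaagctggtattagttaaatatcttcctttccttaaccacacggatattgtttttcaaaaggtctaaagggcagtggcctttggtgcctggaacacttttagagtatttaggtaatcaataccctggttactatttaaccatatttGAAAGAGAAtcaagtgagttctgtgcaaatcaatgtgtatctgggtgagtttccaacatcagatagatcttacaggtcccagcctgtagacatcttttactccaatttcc

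CFB held GAAANNGAA on the other strand, printed as TTCTGTTTC, with its first printed base 139 bases before the start, and TTCCGGGAA from 92 bases before it. C8A held GAAAGAGAA from 60 bases before the start, followed by t. A core longer by a further A, searched first, was in PLG and CFB and not in C8A. C1R held neither motif. None of the 3 held GTTAAT, the core of the site of the hepatocyte factor HNF1. Promoters of 31 of the 39 genes were in the table, and those of TTR, HP, A2M, SERPINC1, SERPINF2, SERPING1, C1S and C3 were not analysed here. With both strands searched, GAAANNGAA was in 9.68% of the 31 (PLG, C8A and CFB) and in 8.29% of all 27305 promoters. TTCNNNGAA was in 19.4% (FGA, F9, F10, PROS1, CFB and MASP2) and 7.88%, and GTTAAT in 25.8% (ALB, AFP, FGA, FGB, F2, PLG, PROC and CFI) and 6.89%. These matches describe the letters of the windows, not binding.

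The coagulation genes of the 39 were lower than untreated as a group with IFN-α at 6 h. All 9 above the dim level were below it on that array, where 50.7% of all genes were above. With median centring 7 of the 9 were below. The 17 further coagulation genes above the dim level, described later, were less one-sided on that array. Of these, 6 were above untreated and 11 below, with a median log2 difference of -0.09. The median log2 difference of the 9 genes was -0.22 after 16 h of IFN-α and -0.39 after 6 h, -0.03 and -0.09 with IFN-λ4, and 0.08 and -0.24 with IFN-λ1. On the same IFN-α arrays the 5 hepatocyte markers had a median of -0.37 at 16 h, with 3 below untreated, and -0.26 at 6 h, with 4 below (3 and 2 with median centring), and KRT8, a keratin, was 2.96-fold lower at 6 h; their part in the coagulation and inhibitor values was not tested. By the brightest probes, the lowest coagulation values were those of F10 and F2 with IFN-α at 6 h, F12 with IFN-α at 16 h and F5 with IFN-λ4 at 6 h.

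F10, the protease that turns prothrombin into thrombin, had intensities of 6860 and 3902 with IFN-α at 16 h and 6 h, 6981 and 8003 with IFN-λ4, 7206 and 7372 with IFN-λ1, and 8344 in untreated cells. All treated arrays were below untreated, and the IFN-α 6 h array was well below the other 6. It was 2.08-fold lower there, and 1.07-fold to 1.20-fold lower on the other treated arrays. With median centring its log2 difference on that array was -0.79, which is under 2-fold. F7, the protease that starts coagulation together with tissue factor, lies 2.1 kb from F10 on chromosome 13. It had log2 differences of 0.19 and -0.39 with IFN-α at 16 h and 6 h and between -0.30 and 0.24 with IFN-λ. Another F7 probe, whose mean was below the dim level, had an intensity of 920 on the IFN-α 16 h array against 234 in untreated cells, a log2 difference of 1.99, and differences of -0.49 to 0.31 on the other arrays, so F7 after 16 h of IFN-α depended on the probe.

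F2, prothrombin, had intensities of 17365 and 10198 with IFN-α at 16 h and 6 h, 24108 and 14277 with IFN-λ4, 22521 and 14367 with IFN-λ1, and 20285 in untreated cells. The 3 arrays of 16 h were all above the 3 of 6 h, and untreated lay within the 16 h values. The log2 difference from untreated was -0.09 and -0.998 with IFN-α, 0.26 and -0.59 with IFN-λ4, and 0.16 and -0.54 with IFN-λ1. F5, the cofactor of factor X, had -0.73 and -0.39 with IFN-α, -0.03 and -0.91 with IFN-λ4 and 0.08 and -0.55 with IFN-λ1. By this probe its 16 h value was the lower one with IFN-α and the higher one with both IFN-λ. A second F5 probe had -0.58 and -0.10 with IFN-α, -0.15 and -0.04 with IFN-λ4 and 0.01 and -0.12 with IFN-λ1. The order of times and the low 6 h value with IFN-λ4 therefore depended on the probe.

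F12, factor XII of the contact system, had intensities of 1872 and 1991 with IFN-α at 16 h and 6 h, 3512 and 4903 with IFN-λ4, 3669 and 3782 with IFN-λ1, and 3493 in untreated cells. Both IFN-α arrays were well below the other 5, and the 4 IFN-λ arrays were at or above untreated. The log2 differences were -0.92 and -0.67 with IFN-α and 0.02 to 0.53 with IFN-λ.

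By their brightest probes the other coagulation genes differed less. PROC, protein C, was below untreated on all 6 treated arrays, by log2 differences of -0.62 to -0.20. PROS1, protein S, ranged from -0.05 to 0.45, and F11, factor XI, from -0.38 to 0.17. KNG1, kininogen, had 0.35 and -0.24 with IFN-α at 16 h and 6 h, 0.19 and -0.19 with IFN-λ4 and 0.28 and -0.05 with IFN-λ1, above untreated at 16 h and below it at 6 h. With median centring all KNG1 values at 6 h were above untreated. Of the 2 other KNG1 probes above the dim level, 1 was 2.54-fold lower than untreated on the IFN-α 6 h array, a log2 difference of -1.35, where the other had -0.002. With median centring F10 and PROC were above it on the IFN-λ4 6 h array. The dim genes F9, factor IX, and PLG, plasminogen, had intensities of 87.6 to 183 and 72.6 to 115 on treated arrays, and 160 and 101 in untreated cells.

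The 3 fibrinogen chains are encoded side by side on chromosome 4, with 10.3 kb between FGB and FGA and 13.4 kb between FGA and FGG, and their values did not run in parallel. FGA had intensities of 151494 and 99293 with IFN-α at 16 h and 6 h, 185045 and 109620 with IFN-λ4, 186158 and 132890 with IFN-λ1, and 125947 in untreated cells. All 16 h arrays were above untreated and above all 6 h arrays. FGB had 212170 and 243916 with IFN-α, 240034 and 222660 with IFN-λ4, 225371 and 215315 with IFN-λ1, and 211354 in untreated cells. Its arrays lay close together, with log2 differences of 0.01 to 0.24. FGG was above untreated at 16 h by log2 differences of 0.54, 0.40 and 0.26 with IFN-α, IFN-λ4 and IFN-λ1, and at 6 h had -0.21, 0.23 and 0.01; the -0.21 was 0.20 with median centring. A second FGG probe had 0.13 there and -0.19 with each IFN-λ.

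**Figure D4:**
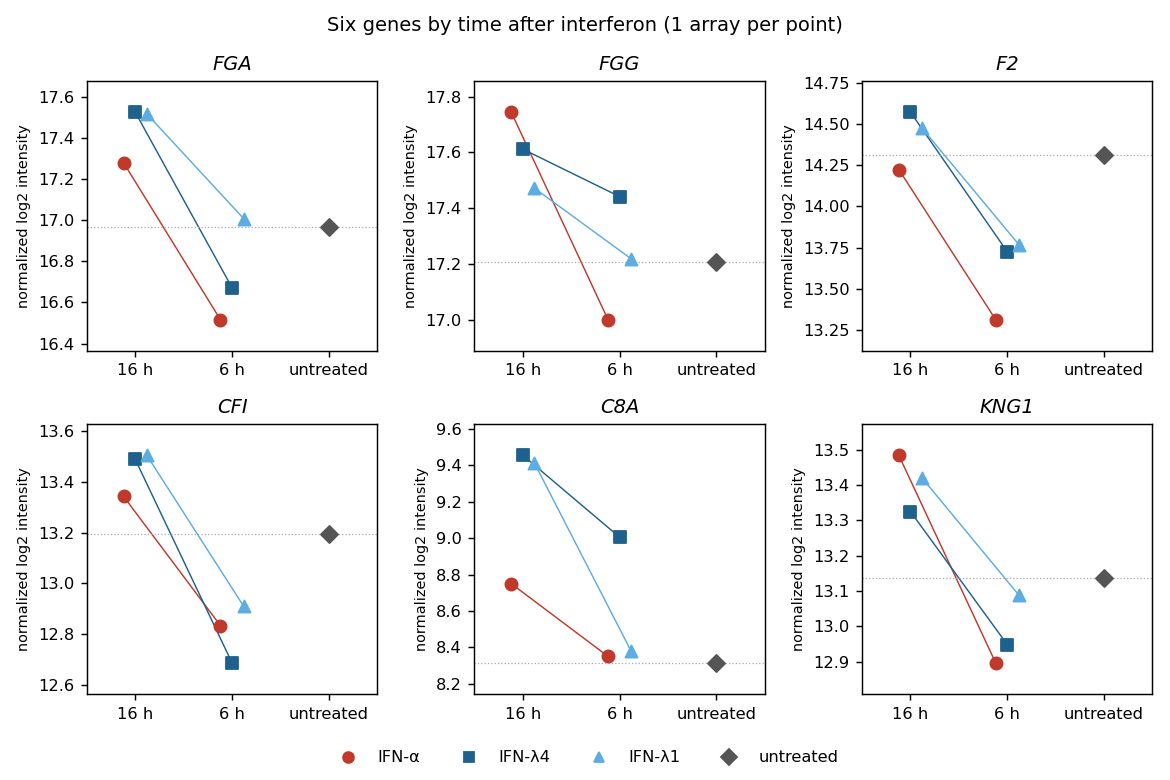
Normalized log2 intensity (vertical axes, each panel with its own range) of FGA, FGG, F2, CFI, C8A and KNG1 at 16 h, at 6 h and in untreated cells, 1 array per point, with lines joining the arrays of 1 interferon. The 16 h arrays lie above the 6 h arrays in FGA, FGG, F2, CFI and KNG1, and in C8A above the 6 h array of the same interferon.

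By their brightest probes, protease inhibitors were mostly below untreated. With IFN-α at 16 h all 6 were below it, where 43.3% of all genes were above. They stayed below it with median centring and the deposited scaling. Second probes of SERPINA1 and SERPINC1 were above untreated on that array, by log2 differences of 0.30 and 0.56. The group's median log2 difference was -0.45 after 16 h of IFN-α and -0.25 after 6 h, -0.01 and -0.32 with IFN-λ4, and -0.09 and -0.27 with IFN-λ1. On the IFN-α 6 h array 4 of the 6 were below untreated, where 50.7% of all genes were above, and 2 with median centring. A2M, alpha-2-macroglobulin, a broad protease trap, had intensities of 36140 and 46362 with IFN-α at 16 h and 6 h, 47830 and 45787 with IFN-λ4, 52176 and 52714 with IFN-λ1, and 61382 in untreated cells. Every treated array was below untreated, by log2 differences of -0.62 to -0.24, and a second A2M probe was below it on all 6 arrays too, by -0.99 to -0.23. SERPINF2, the inhibitor of plasmin, was likewise below untreated throughout, by -0.73 and -0.46 on the IFN-α arrays and -0.42 to -0.23 on the IFN-λ arrays.

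SERPINA3, antichymotrypsin, differed by time. Its log2 differences were -0.42, -0.05 and -0.05 at 16 h and 0.35, 0.52 and 0.44 at 6 h with IFN-α, IFN-λ4 and IFN-λ1. Its intensities, 255 to 428 on treated arrays and 319 in untreated cells, were near the dim level. SERPINC1, antithrombin, had -0.83 on the IFN-α 16 h array, where its second probe had 0.56, so its direction there depended on the probe. SERPING1, the inhibitor of C1R and C1S, ranged from -0.59 to 0.05, and SERPINA1, antitrypsin, from -0.18 to 0.14. A second SERPINA1 probe ranged from -0.09 to 0.53 and had the sign of the brightest probe on 2 of the 6 arrays.

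The carriers and the acute phase genes with a probe of their own stayed within 2-fold of untreated on each treated array. ALB, albumin, had intensities of 194688 and 131316 with IFN-α at 16 h and 6 h, 186350 and 142281 with IFN-λ4, 202537 and 192036 with IFN-λ1, and 190368 in untreated cells. It was lower at 6 h with IFN-α and IFN-λ4, by log2 differences of -0.59 and -0.50 (-0.23 and -0.16 with median centring), and within 0.08 of untreated on the other arrays. AFP, the fetal counterpart of albumin that hepatomas secrete, had 370702 and 326203 with IFN-α, 321343 and 313600 with IFN-λ4, 339172 and 344052 with IFN-λ1, and 335718 in untreated cells. Its log2 differences were -0.27 to -0.08, and all 6 turned positive with median centring. On each array 9 to 23 probes were brighter than that of AFP. Whether signal was compressed at such intensities was not tested.

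TTR, transthyretin, ranged in log2 difference from -0.46 to 0.23, TF, transferrin, from -0.27 to 0.30, and AHSG, fetuin-A, from -0.58 to 0.17. A second TTR probe was below untreated on every treated array, by -0.51 to -0.12. On the IFN-α 6 h array it had -0.35, where the brightest probe had 0.23. AHSG was lowest on the IFN-α arrays, with -0.39 at 16 h and -0.58 at 6 h. HPX, the heme carrier hemopexin, had 0.64 with IFN-α at 16 h and -0.14 to 0.16 on the other arrays. CRP, C-reactive protein, had intensities of 334 to 433 on treated arrays and 453 in untreated cells, and log2 differences of -0.44 to 0.02.

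The 4 comparisons below were tested with limma across all 12835 genes, and none of the 33 plasma protein genes passed an adjusted p of 0.05 in any of them. Treated against untreated arrays called 0.117% of all genes, IFN-α against both IFN-λ 0.156%, and 16 h against 6 h and IFN-λ4 against IFN-λ1 0.0% each. At an unadjusted p under 0.05 the 33 genes gave 2 in treated against untreated (2.0% of all genes), 10 in 16 h against 6 h (15.1%), 6 in IFN-α against both IFN-λ (17.4%) and 0 in IFN-λ4 against IFN-λ1 (2.39%). The fits of interferon and time had 2 residual degrees of freedom, and the fit of treatment had 1 untreated array.

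For treated against untreated, 5 of 33 genes (FGB, C1R, C3, C8A and CFB) had all 6 treated arrays above untreated, as 10.6% of all genes did, and 5 (AFP, A2M, SERPINF2, F10 and PROC) had all 6 below, as 11.5% did. Those 5 and 5 are each 15.2% of the 33. CFB differed by 0.65 ± 0.27 (SE; mean of 6 treated arrays against 1) on the log2 scale and A2M by -0.43 ± 0.19, each with a limma adjusted p of 0.999. With median centring 11 genes lay above on all 6 arrays (14.7% of all genes) and 2 below (5.49%); with the deposited scaling 4 (7.91%) and 6 (13.9%). C3 and CFB above, and A2M and SERPINF2 below, were among them under each of the 3 scalings.

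For 16 h against 6 h, 6 of 33 genes (FGA, FGG, F2, KNG1, C5 and CFI), or 18.2%, had all 16 h arrays above all 6 h arrays, against 6.13% of all genes, and 1 gene (SERPINA3) had them all below, against 13.6%. Within each interferon, 8 genes were higher at 16 h in all 3 pairs (14.6% of all genes), and TTR, SERPINA3 and C1R were lower in all 3 (24.1%). A second TTR probe was level between times with IFN-λ1, with log2 differences from untreated of -0.1187 at 16 h and -0.1225 at 6 h. F2 was higher at 16 h by 0.82 ± 0.15 (SE, 3 arrays at each time), FGA by 0.71 ± 0.13, CFI by 0.64 ± 0.16 and C8A by 0.63 ± 0.19, with limma adjusted p of 0.183, 0.183, 0.203 and 0.242. By interferon the F2 difference was 0.91 with IFN-α, 0.85 with IFN-λ4 and 0.71 with IFN-λ1, and that of FGA was 0.76, 0.85 and 0.51. Under median centring FGA, KNG1 and CFI kept all 16 h arrays above the 6 h arrays (2.94% of all genes), and under the deposited scaling 7 genes did (5.45%).

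Without the IFN-α arrays, which leaves 1 residual degree of freedom, limma called 7 of the 33 genes between times, all higher at 16 h: SERPING1, FGA, F2, F5, C5, C8A and CFI, with adjusted p of 0.0036 to 0.0266. These are 21.2% of the 33, where 20.9% of all genes were called in either direction and 9.23% as higher. Without the IFN-λ4 arrays or without the IFN-λ1 arrays 0 of the 33 were called. All arrays of the 2 times lay on opposite sides of untreated for 4 of the 33 genes (SERPINA3, KNG1, C5 and CFI), as for 4.77% of all genes; for IFN-α and both IFN-λ this held for 1 (F12; 3.08%), and for IFN-λ4 and IFN-λ1 for 1 (ALB; 5.75%). No untreated array was matched to either time, so hours of interferon and hours in culture cannot be told apart.

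For IFN-α against both IFN-λ, C1R, C1S and C3 had both IFN-α arrays above all 4 IFN-λ arrays, and AHSG, SERPINF2 and F12 had both below. Those are 9.09% of the 33 genes each, against 10.8% and 12.3% of all genes. C1R was 2.20-fold higher with IFN-α, a log2 difference of 1.14 ± 0.18 (SE, 2 arrays against 4; limma adjusted p 0.0676), by 1.18 at 16 h and 1.10 at 6 h. F12 differed by -0.975 ± 0.19 (limma adjusted p 0.0973), about equally at both times. C1R passed with median centring (limma adjusted p 0.0417; 1.04% of all genes called) and without the IFN-λ4 arrays (0.0305; 3.32%), and C1R (higher) and F12, AHSG and F10 (lower) passed without the IFN-α 16 h array (0.00637 to 0.0374; 15.3%). That last fit has 1 IFN-α array, assumed to vary like the others, and 1 residual degree of freedom, so its calls rest on the 6 h array. Without the IFN-λ1 arrays C1R did not pass (limma adjusted p 0.186). In that setting 0 of the 33 genes were called, and 0.187% of all genes.

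No plasma protein gene passed the test between the type III interferons. Differences of IFN-λ4 from IFN-λ1 ran from -0.33 (ALB) to 0.33 (C8A) on the log2 scale, each with a limma adjusted p of 1.0. The 95% intervals, not adjusted for the number of genes, reached 0.32 to 0.74 to each side, with a median of 0.48. Calls were adjusted over all genes, so a difference had to be larger still to pass with these arrays. Both IFN-λ4 arrays were above both IFN-λ1 arrays in 5 genes (TTR, F11, PROC, C1S and CFB; 16.2% of all genes) and below them in 5 (ALB, TF, AFP, A2M and SERPINF2; 11.3%).

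Other genes of the same pathways, from lists that shared no gene with the 39, showed single large differences and no limma call. Of 24 further complement genes 14 were above the dim level, and 3 (C1QC, C6 and CD59) were at least 2-fold higher on some array and 1 (CLU) lower, where 8.34% of all genes were higher and 6.51% lower by that rule. CD59, which protects cells from the complement pore, had intensities of 18293 and 14840 with IFN-α at 16 h and 6 h, 8174 and 10810 with IFN-λ4, 7386 and 9111 with IFN-λ1, and 7719 in untreated cells. Both IFN-α arrays were above all others. C1QC, a chain of C1q, was 3.54-fold higher on the IFN-α 16 h array and 1.18-fold at 6 h. CLU, clusterin, was 2.70-fold lower with IFN-α and 2.11-fold lower with IFN-λ4 at 6 h.

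Of 20 further coagulation genes 17 were above the dim level, with 3 (F13B, HRG and PROCR) at least 2-fold higher on some array and 2 (PLAT and PLAU) lower, against the same 8.34% and 6.51% of all genes. F13B, the carrier chain of factor XIII, had intensities of 1485 and 299 with IFN-α at 16 h and 6 h, 1330 and 495 with IFN-λ4, 1362 and 694 with IFN-λ1, and 412 in untreated cells. All 16 h arrays were above all 6 h arrays and above untreated; the difference between times was 1.47 ± 0.23 (SE, 3 arrays at each time; limma adjusted p 0.183). PLAU, urokinase, had 163 and 183 with IFN-α, 354 and 337 with IFN-λ4, 380 and 442 with IFN-λ1, and 570 in untreated cells, lowest on the IFN-α arrays and below untreated on all 6. HRG, histidine-rich glycoprotein, was 3.56-fold higher on the IFN-α 16 h array and 1.31-fold at 6 h.

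Of 22 further acute phase and plasma protein genes 15 were above the dim level, and 1, FETUB (fetuin-B), was at least 2-fold higher on some array (8.34% of all genes), 2.13-fold with IFN-α at 16 h. SAA1 and SAA2, the main inducible serum amyloid genes, were below the dim level. All 10 genes of acute phase signalling were above it, and 3 were at least 2-fold higher on the IFN-α 6 h array, where 3.93% of all genes were: SOCS3, the feedback inhibitor of STAT3 signalling, by 3.12-fold, CEBPD, a transcription factor of the acute phase response, by 2.76-fold, and IL6R, the interleukin 6 receptor, by 2.04-fold. SOCS3 had 1.31-fold at 16 h with IFN-α and 0.843-fold to 1.20-fold with IFN-λ.

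Second probes above the dim level existed for 9 of the 33 genes, 10 probes in all, and had the same sign as the brightest probe in 43 of 60 differences from untreated. In A2M, FGA and F5 the sign was the same on all 6 arrays. The largest gap was 1.39 log2 units, for SERPINC1 on the IFN-α 16 h array, followed by 1.11 for KNG1 and 0.87 for F5.

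**Figure D5:**
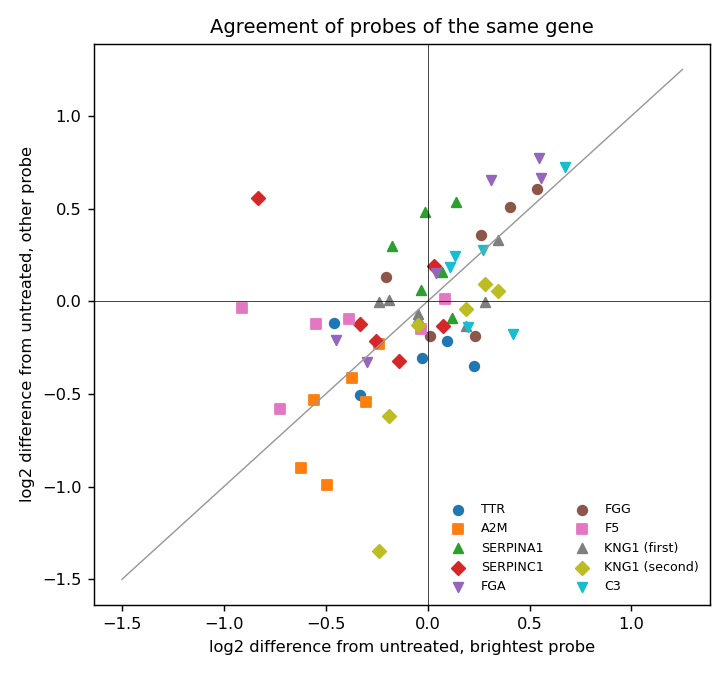
Log2 difference from untreated by the brightest probe of a gene (horizontal axis) and by another probe of it above the dim level (vertical axis), 6 treated arrays per probe and 10 probes of 9 genes. Points in the lower left and upper right, 43 of 60, have the same sign by both probes; the diagonal marks equal values, and the SERPINC1 point at the upper left is the IFN-α 16 h array.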

How the data were processed

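Messenger RNA of Huh7 cells was measured on 7 arrays of 31741 probes, 1 array per condition. Values were the deposited intensity of each probe on a linear scale. How the authors scaled them and corrected background is not given in the sources used here. One protocol in the labels gives the IFN-α dose in U/ml and the series design in IU/ml. RNA was amplified and labelled with Cy5, per the labels' protocols.

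Deposited intensities were set to at least 1, turned to log2 and quantile-normalized (numpy 2.4.6 and pandas 2.3.3 in Python 3.11.15). Of the probes, 24740 had 1 symbol, 977 several and 6024 none; of the first, 22722 were current, 1948 were updated through RefSeq and 70 were kept. Probes with several symbols were not used. The dim filter left out genes whose mean was below the 30th percentile. limma 3.58.1 in R 4.3.3 (variance trend, Benjamini-Hochberg adjustment over 12835 genes at 0.05) set all 6 treated arrays against the untreated array and, in an additive fit of interferon and time, compared the times and the interferons. The labels give no replicates, so array error was not measured: residual spread (median SD 0.20 log2 units) holds interferon-by-time differences, and would give a difference of 2 arrays an SE of 0.29. The number of arrays limits the precision. Figures used matplotlib 3.10.9. Steps were tested on simulated data.

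By the naming rule every gene was accounted for by role, with all arrays' values for genes at least 2-fold from untreated on an array (C1R, C8A, F10) and for ALB, AFP, FGB and C3, and from each further list counts and up to 3 genes. C1S, CFB, F2, F12, FGA, A2M and the genes named with the no-overlap counts were singled out after their values were seen. The 39 genes and all lists were chosen with earlier results of these data known. Variations tried were median centring, the deposited scaling, 2 other dim filters, a floor at the 30th percentile, the mean over probes, 1.5-fold, no variance trend, no interferon or time term, and leaving out each interferon; leaving out the IFN-α 16 h array was chosen after seeing the data.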

Additional observations from a re-analysis of the deposited data

Results flagged for a closer look

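Arrays of some groups lay on opposite sides of untreated for 6 genes, and none of these differences passed limma. They are 4 of 33 between times (4.77% of all genes), 1 between IFN-α and both IFN-λ (3.08%) and 1 between IFN-λ4 and IFN-λ1 (5.75%). F12 was below untreated on both IFN-α arrays and above it on all 4 IFN-λ arrays, a log2 difference of -0.975 (limma adjusted p 0.0973). ALB was below untreated on both IFN-λ4 arrays and above it on both IFN-λ1 arrays, with a difference of -0.33 (limma adjusted p 1.0); with median centring its IFN-λ4 16 h value was above untreated.

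Between times, SERPINA3 was below untreated on the 3 arrays of 16 h and above it on the 3 of 6 h, a difference of -0.61 (limma adjusted p 0.212). The opposite order, above untreated at 16 h and below it at 6 h, was seen for CFI with a difference of 0.64 (limma adjusted p 0.203), KNG1 with 0.43 (0.276) and C5 with 0.35 (0.31). With median centring KNG1 was above untreated at 6 h, CFI changed sides on the IFN-α 16 h array, and C5 changed sides on both IFN-α arrays and the IFN-λ4 6 h array.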

How the results depend on the processing

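The labels give no replicate numbers to pair arrays by. The fit of times has interferon as a term, so times were compared within each interferon. The differences within each interferon stand beside that fit. Counts of plasma protein genes at least 2-fold from untreated changed as follows. On the IFN-α 16 h array the count became 0 of 26 with genes above the 50th percentile and 9 at 1.5-fold (26.2% of all genes). On the IFN-α 6 h array it became 1 with median centring, the 50th percentile or the mean over probes, and 9 at 1.5-fold (20.7%). On both 16 h IFN-λ arrays it became 0 with the deposited scaling or the 50th percentile, and on the IFN-λ4 6 h array 5 at 1.5-fold (15.3%). Median centring moved the median log2 difference to 0.060 with IFN-α at 6 h and 0.20 with IFN-λ4 at 6 h.

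The number called between times went to 7 without the IFN-α arrays and to 7 without the IFN-α 16 h array. For IFN-α against both IFN-λ it went to 1 with median centring, 1 without the IFN-λ4 arrays and 4 without the IFN-α 16 h array. The counts over all genes for that comparison, 20 as reported, became 133, 426 and 1959 under these settings, 4 with the 50th percentile and 47 with the mean over probes. Those between times, 0 as reported, became 2678 without the IFN-α arrays, 2688 without the IFN-α 16 h array and 37 without the IFN-λ4 arrays. Treated against untreated became 37 without the IFN-α arrays, in place of 15, and IFN-λ4 against IFN-λ1 became 1 with no dim filter, 1 with the mean over probes and 2 without the IFN-α 16 h array, in place of 0. Fits of interferon and time that leave out arrays have 1 residual degree of freedom; the cause of the changes was not tested. With the mean over probes, which adds its dim probe, C1R differed from untreated by 0.54 after 16 h of IFN-α and 0.39 after 6 h. The 2-fold differences of C1R, C8A and F10 kept their direction where recomputed, though some fell under 2-fold. As reported, limma called none of the plasma protein genes, so no limma call could reverse. Of the 198 differences of single genes from untreated, 34 in 20 genes changed side with median centring, the largest of them 0.37 in size on the log2 scale as reported, and 16 in 12 genes with the deposited scaling, the largest 0.24 in size. The single untreated array limits every difference from untreated.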
